A study of Mus musculus with 9 samples.

Results

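Weight loss (WL) after a long period of obesity was set against WL after a shorter one in nuclei of epididymal adipose tissue (epiAT), a visceral fat depot beside the testis. The library HHC came from mice that received high-fat diet (HFD) over 25 weeks, were returned to chow over 8 weeks and were 39 weeks old. The library HC came from mice that received HFD over 12 weeks, were returned to chow over the same 8 weeks and were 26 weeks old. All were male C57BL/6J mice, with no genetic alteration or drug named in the labels, and each library held nuclei pooled from 5 mice. Barcodes in which between 500 and 3000 genes were detected, with no more than 40000 UMIs (unique molecular identifiers, each standing for 1 captured RNA molecule), were taken, and after removal of doublets these were 13592 of the 73308 nuclei of all 9 libraries, 5153 in HC and 8439 in HHC. Each diet group had 1 library, so no test between groups was made, and every interval given is a 95% interval that covers counting error only and not differences between mice or libraries.

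The length of HFD and the age of the mice differ together between HC and HHC and cannot be told apart. Values are therefore given beside those of CC and CCC, mice on chow alone that were 26 and 39 weeks old. These libraries belong to the same set as HC and HHC (S019). Values of H and HH, mice still on HFD after 12 and 25 weeks and 18 and 31 weeks old, of another set (S075), are given too. Where HC or HHC is described as near to or apart from H and HH, diet cannot be told apart from the set. The 3 pairs share no library. HC and HHC are pools, so the spread among the 5 mice of a pool is not known.

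Adipose tissue expands in obesity by enlarging adipocytes and by recruiting new ones from adipocyte progenitor cells (APCs), and macrophages gather around stressed and dying adipocytes. Lipid-associated macrophages (LAMs), marked by Trem2, Gpnmb and Spp1, take up lipid and process it in lysosomes. Adipocytes make fatty acids from glucose and acetate by de novo lipogenesis, store them as triglyceride and release them by lipolysis, and the lipogenic genes are known to respond to feeding, insulin and the carbohydrate content of the diet. Obesity and ageing are both known to bring immune cells into visceral fat.

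The deposited matrix of HC held 6389 barcodes with 31921464 UMIs and that of HHC held 11810 barcodes with 66615262 UMIs. Nuclei that were kept had a median of 3042 UMIs in HC and 3194 in HHC. Of all barcodes, 15.3% in HC and 22.2% in HHC exceeded 3000 genes and were left out. Mitochondrial genes took 1.13% and 1.78% of UMIs, and Malat1, a nuclear RNA, took 5.64% and 7.23%. The 2 libraries shared 24 barcodes, 0.376% of those of HC. Clusters of nuclei with few UMIs and markers of several classes were set apart, and these held 4.23% of the nuclei of HC and 20.1% of those of HHC, against 9.86% in CC and 21.3% in CCC. Shares of classes below are of the remaining 4935 nuclei of HC and 6743 of HHC.

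The largest difference in composition was in adipocytes and macrophages. Adipocyte-like nuclei, named as all classes here from marker genes, made up 16.6% (15.5 to 17.6) of HC (817 nuclei) and 4.17% (3.70 to 4.67) of HHC (281 nuclei), a difference of -12.4 percentage points (-13.5 to -11.3). They made up 22.8% of CC and 23.1% of CCC, and 1.78% of H and 3.17% of HH. Between HC and HHC the difference was -8.44 points with no upper limit on genes and -10.5 with the low-count clusters kept. The main adipocyte cluster held 22.7% of CC and 16.2% of CCC, and 6.78% of CCC lay in a cluster found in CCC alone. In a first pass of clustering, before low-count clusters were set apart, 1472 nuclei of CCC lay in a cluster named from adipocyte markers. In the second pass a cluster with similar leading genes and 940 nuclei of CCC was named epithelial-like, so the share of CCC is not settled. HC lay between its chow control and the obese libraries, whereas HHC lay closer to the obese libraries than to CCC. The class was well marked in both libraries, with none of its 14 markers at 0 and a summed marker level of 31427 CPM (UMIs scaled to a common total of all UMIs of the class) in HC and 42961 in HHC.

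Macrophage-like nuclei made up 21.9% (20.7 to 23.04) of HC (1079 nuclei) and 35.6% (34.4 to 36.7) of HHC (2400 nuclei), a difference of 13.7 points (12.1 to 15.3). The same class was 12.0% of CC and 8.19% of CCC, so it was smaller in the older chow library (-3.80 points), and 49.6% of H and 40.4% of HH. There were 1.32 macrophage nuclei for each adipocyte nucleus in HC and 8.54 in HHC, against 0.525 in CC, 0.354 in CCC, 27.9 in H and 12.8 in HH. The difference was 7.84 points with the low-count clusters kept and 26.2 points without correction between libraries. Counted over all nuclei that were kept, including those set apart, macrophages were 20.9% of HC and 28.4% of HHC, and adipocytes were 15.9% and 3.33%. Nuclei set apart count here as no class. Of these, 1538 of 1696 in HHC and 85 of 218 in HC lay in a cluster with macrophage as its best class of markers. In shares of nuclei, fewer adipocyte nuclei and more nuclei of other kinds cannot be told apart, since shares sum to a fixed total.

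**Figure D1:**
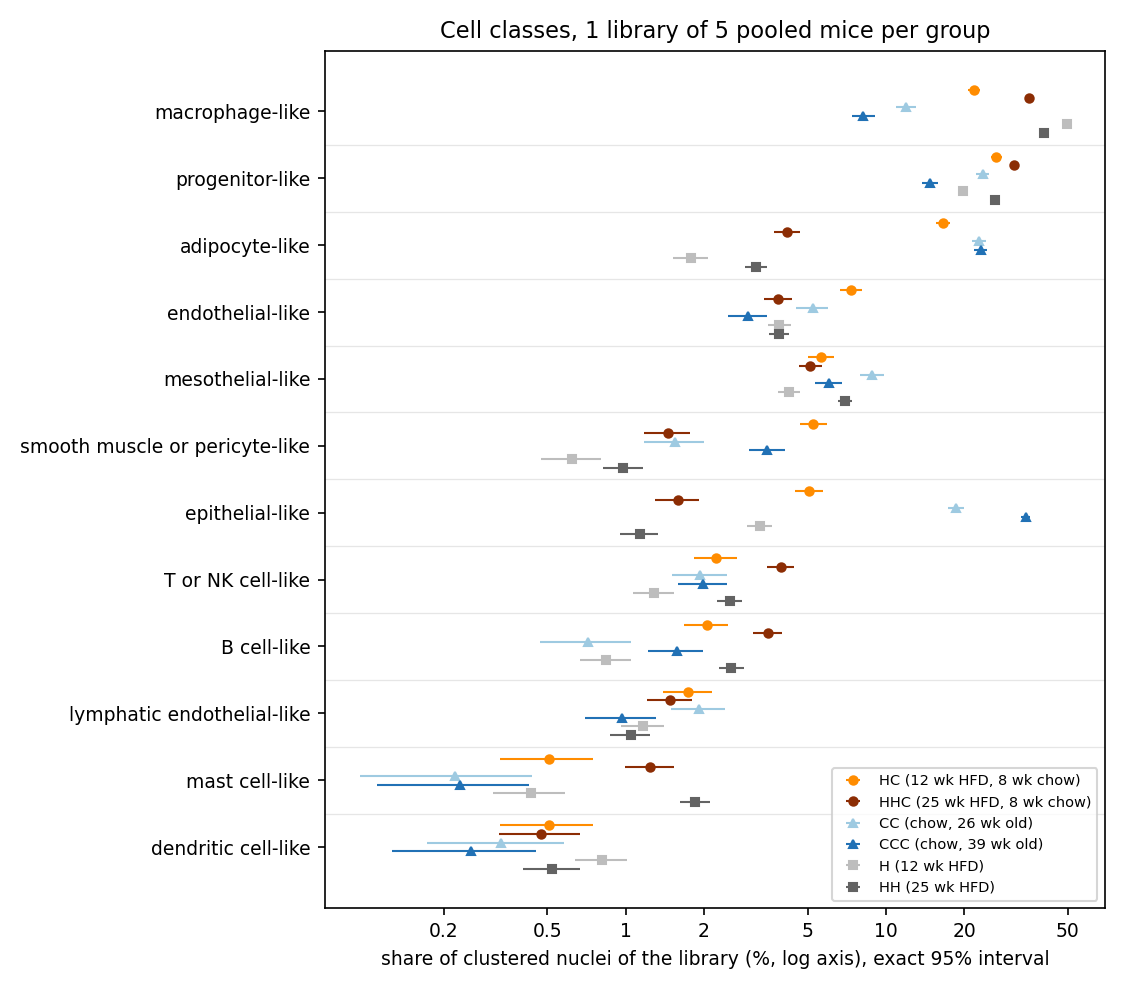
Share of nuclei in each cell class (percent of nuclei in clusters, log axis) in HC, HHC, CC, CCC, H and HH, with bars for exact 95% intervals of counting error. Adipocyte-like nuclei sit at 16.6% in HC and 4.17% in HHC, and macrophage-like nuclei at 21.9% and 35.6%.

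Other immune classes also took larger shares in HHC. T and NK cell-like nuclei were 2.23% of HC (110 nuclei) and 3.96% of HHC (267 nuclei), B cell-like nuclei were 2.05% (101 nuclei) and 3.51% (237 nuclei), and mast cell-like nuclei were 0.507% (25 nuclei) and 1.25% (84 nuclei). The differences were 1.73 points (1.10 to 2.35), 1.47 points (0.87 to 2.06) and 0.739 points (0.401 to 1.08). With the libraries of S019 clustered alone, those of T and NK cells and of B cells were 1.03 and 0.78 points, and without removal of doublets that of mast cells was near 0. All immune classes together made up 27.2% of nuclei (25.9 to 28.4) in HC and 44.8% (43.6 to 46.0) in HHC, against 15.2% in CC, 12.2% in CCC, 53.0% in H and 47.8% in HH. Dendritic cell-like nuclei took 0.507% and 0.475%. Unnamed nuclei, 4.66% of HC, 6.36% of HHC, 12.1% of H and 8.67% of HH, are not in these totals, although their 15 macrophage markers summed to 8532 CPM in HC and 11221 in HHC, so the immune totals are lower than with them.

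Of the stromal and vascular classes, endothelial and smooth muscle or pericyte-like nuclei took smaller shares in HHC. Endothelial-like nuclei were 7.36% of HC (363 nuclei) and 3.86% of HHC (260 nuclei), a difference of -3.50 points (-4.38 to -2.65), and in the chow pair they were 5.23% and 2.95%. In the first pass of clustering, the clusters named endothelial held 125, 92 and 36 nuclei of HC and 100, 94 and 49 of HHC. There, a cluster with markers of both pericytes and endothelium held 139 nuclei of HC and 17 of HHC. The part of such mixed nuclei in the endothelial difference was not tested. Smooth muscle or pericyte-like nuclei were 5.27% of HC and 1.45% of HHC, against 1.55% of CC and 3.51% of CCC. Most of this difference lay in clusters without Rgs5 and Notch3 among their markers. One with Actg2 and Rbfox3 among its leading genes held 119 nuclei of HC and 22 of HHC (-2.09 points), and one with Rbfox3 and Mybpc1 held 60 nuclei, 58 of them from HC and none from HHC (-1.18 points). The cluster that had Rgs5, Notch3 and the other pericyte markers held 83 and 76 nuclei (-0.55 points, -1.01 to -0.13). Mesothelial-like nuclei, from the lining of the depot, were 5.63% and 5.13%, with an interval of the difference from -1.35 to 0.32 points, and lymphatic endothelial-like nuclei were 1.74% and 1.48% (-0.74 to 0.20 points). Progenitor-like nuclei, the APCs, were 26.6% of HC (1311 nuclei) and 31.2% of HHC (2102 nuclei), but 25.4% and 24.9% of all nuclei that were kept, so the direction of this difference depends on the nuclei set apart.

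Epithelial-like nuclei, which carry genes of the epididymis, were 5.07% of HC and 1.59% of HHC, against 18.6% of CC and 34.4% of CCC. Such cells are not part of adipose tissue, and their share sets how much of each library the other classes could take. In HC a gene of these nuclei was found in the other classes too. Akr1b7, an aldo-keto reductase, stood at 4593 CPM in the epithelial-like nuclei of HC and at 139 to 259 CPM in its adipocyte-, macrophage-, progenitor-, endothelial- and mesothelial-like nuclei, and at 0 to 0.561 CPM in the same 5 classes of HHC. Akr1b7 and the genes of the next paragraph were picked for their values in all classes and not by the rule for named genes.

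RNA of one class was found in the nuclei of the others in both libraries, in unequal amounts. Ighm, the immunoglobulin mu chain of B cells, was at 29.1 to 92.7 CPM over the 5 classes in HC and at 246 to 485 CPM in HHC, where B cell-like nuclei had 3371 CPM. Ptgs2, the inducible cyclooxygenase, was at 24.3 to 51.3 CPM over the 5 classes in HC and 0 to 5.36 CPM in HHC, and was highest in the epithelial-like nuclei of HC (347 CPM). The 15 macrophage markers summed to 1801 CPM in progenitor-like nuclei of HC and 3866 CPM in those of HHC, to 2286 and 3120 CPM in adipocyte-like nuclei, and to 2639 and 5136 CPM in endothelial-like nuclei. Gm42418, which overlaps a ribosomal RNA repeat, took 43735 to 84732 CPM over the 5 classes in HC and 9614 to 19420 CPM in HHC. It was also higher in CC (56163 to 95774 CPM) than in CCC (20763 to 39760 CPM). For these reasons the CPM in the other nuclei of the library is given beside some of the genes below, genes past 2-fold in all 5 classes are named as such where they carry a comparison, and the part of such RNA in a difference between HC and HHC was not tested. The other nuclei are all kept nuclei of the library outside the class or kind, with the unnamed nuclei and those set apart among them.

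Length of the gene went with the ratio between the libraries in every class. Among genes that span under 10 kb, the median log2 ratio of HHC to HC was 0.66 in adipocytes, 0.79 in macrophages, 0.79 in progenitors, 0.60 in endothelial and 0.70 in mesothelial nuclei, and among genes over 100 kb it was -0.11, -0.22, -0.11, -0.11 and -0.10. The median over all genes was 0.17, 0.19, 0.21, 0.17 and 0.15. In the chow pair the shortest genes had medians of 0.057 to 0.35 (CCC to CC), and in the obese pair 0.037 to 0.21 (HH to H). Short genes include most chemokine, ribosomal protein and histocompatibility genes, so the lists below are given also relative to genes of their own span. A value relative to span is the log2 ratio of a gene less the median of all genes tested in the same of 4 span groups.

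**Figure D2:**
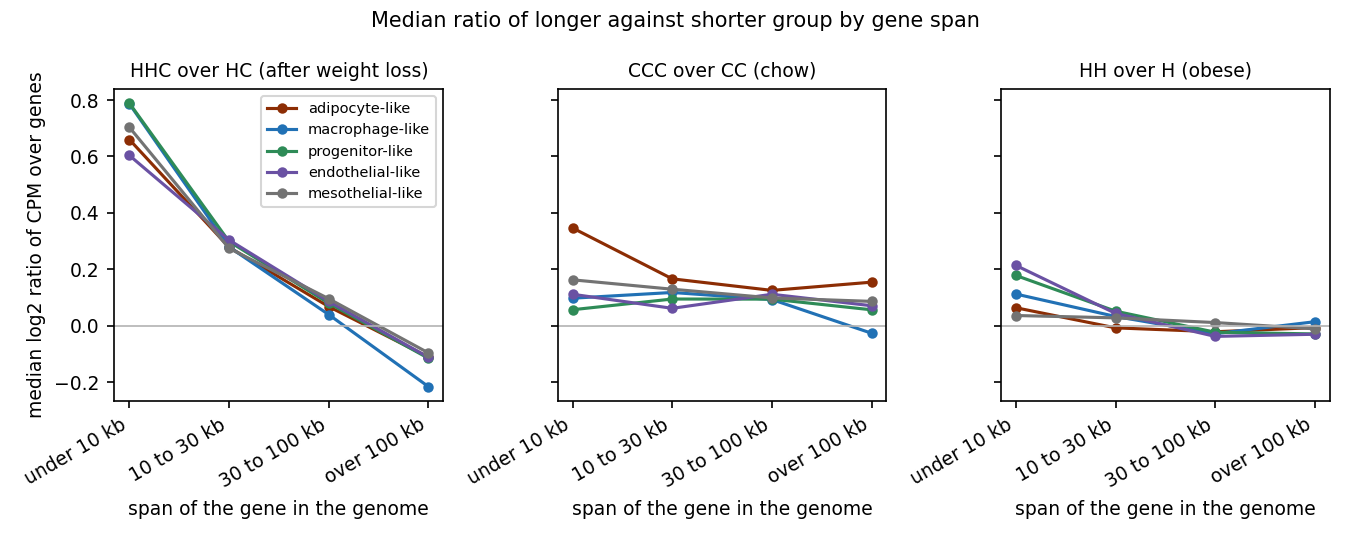
Median log2 ratio of CPM by annotated span of the gene (x axis, 4 spans) in 5 cell classes, in separate panels for HHC to HC, CCC to CC and HH to H. For HHC to HC the medians go from 0.60 to 0.79 under 10 kb to -0.22 to -0.10 over 100 kb, with narrower ranges in the other pairs.

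Of 11331 genes tested in adipocytes (at least 20 UMIs over both libraries), 12.8% were past 2-fold higher in HHC and 4.24% past 2-fold lower. In macrophages these were 15.3% and 4.92% of 14052 genes, in progenitors 15.5% and 2.93% of 14450, in endothelial nuclei 10.3% and 4.32% of 9817 and in mesothelial nuclei 11.5% and 3.24% of 9671. Among genes under 10 kb, 32.2%, 38.4%, 38.0%, 26.1% and 35.4% were past 2-fold higher in these 5 classes in the same order. Counts in the lists below are to be read against these shares. Another scaling of the libraries, by trimmed means (TMM), moved the median of all genes by -0.25, -0.13, -0.19, -0.20 and -0.13 on the log2 scale. With it, genes past 2-fold were divided into 995 higher and 762 lower in adipocytes (1447 and 481 by CPM), 1757 and 830 in macrophages (2147 and 692), 1757 and 593 in progenitors (2245 and 423), 651 and 646 in endothelial nuclei (1012 and 424) and 875 and 411 in mesothelial nuclei (1113 and 313). Relative to genes of the same span the divisions were 844 and 704, 1081 and 918, 1177 and 702, 532 and 611, and 626 and 470. Of 8491 genes tested in all 5 classes, 168 were past 2-fold higher in each of them (1.98%, 96 of them under 10 kb), and 41 lower (0.483%). Ratios below are of CPM, and log2 values near 0.2 are therefore near the median gene.

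In adipocytes, genes of de novo fatty acid synthesis were lower in HHC than in HC. Of the 14 genes listed, all tested, 6 were past 2-fold lower and none higher, 10 had intervals below 0, and the median log2 ratio was -0.89 against 0.17 for all genes (-1.12 relative to genes of the same span, where 8 were past 2-fold lower). In the chow pair 9 of the 14 also had intervals below 0, with a median of -0.36, and in the obese pair the median was -0.07. The summed level was 8115 CPM in HC and 4157 in HHC, against 5860 in CC, 3720 in CCC, 4542 in H and 4734 in HH, so that HC had the highest sum of these 6 libraries and HHC was next to the lowest, CCC.

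Acly, which cleaves citrate to supply acetyl-CoA, was at 267 CPM in HC and 77.6 in HHC (log2 ratio -1.78, -2.09 to -1.49), against 98.5 in CC, 75.3 in CCC, 74.0 in H and 47.1 in HH. Elovl6, which extends palmitate, was at 116 CPM in HC and 29.4 in HHC (-1.98), and at 34.6 in CC, 36.0 in CCC, 26.0 in H and 16.8 in HH. For both genes HC stood apart above the 5 other libraries. In the other nuclei Elovl6 had 75.7 CPM in HC and 36.3 in HHC, so in HHC it was not higher in adipocytes. Acss2, which makes acetyl-CoA from acetate and is not in the list, was at 423 CPM in HC and 121 in HHC (-1.81), with 190 in CC, 122 in CCC, 266 in H and 202 in HH. Acaca, the acetyl-CoA carboxylase of the cytosol, had 2982 and 1299 CPM (-1.20), and 1108 in CC and 714 in CCC. Fasn, the fatty acid synthase, had 213 and 86.9 CPM (-1.30), and Me1, which supplies NADPH, had 804 and 334 CPM (-1.27). Pnpla3, a lipogenic lipase and the last of the 6 genes past 2-fold, had 1163 and 558 CPM (-1.06) and was also past 2-fold lower in the other 4 large classes. Scd1, the stearoyl-CoA desaturase, had 829 and 449 CPM (-0.89), short of 2-fold. Srebf1 and Thrsp, regulators of the same genes, were at 103 and 114 CPM and at 244 and 258 CPM, and Mlxipl, which encodes ChREBP, was at 706 and 511 CPM.

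Triglyceride synthesis genes were lower on balance. Of 10 genes, Mogat1 was past 2-fold lower (32.9 and 15.1 CPM), none was higher, and the median was -0.54 (-0.91 relative to span, -0.14 in the chow pair). Relative to span 4 of the 10 were past 2-fold lower, Mogat1, Pck1, Dgat2 and Agpat2. Dgat2, which adds the last acyl chain, had 1394 CPM in HC and 738 in HHC (-0.92), and Gpam, which starts the pathway, had 209 and 120 CPM. Gpd1, which makes glycerol 3-phosphate, had 139 and 186 CPM and pointed the other way.

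**Figure D3:**
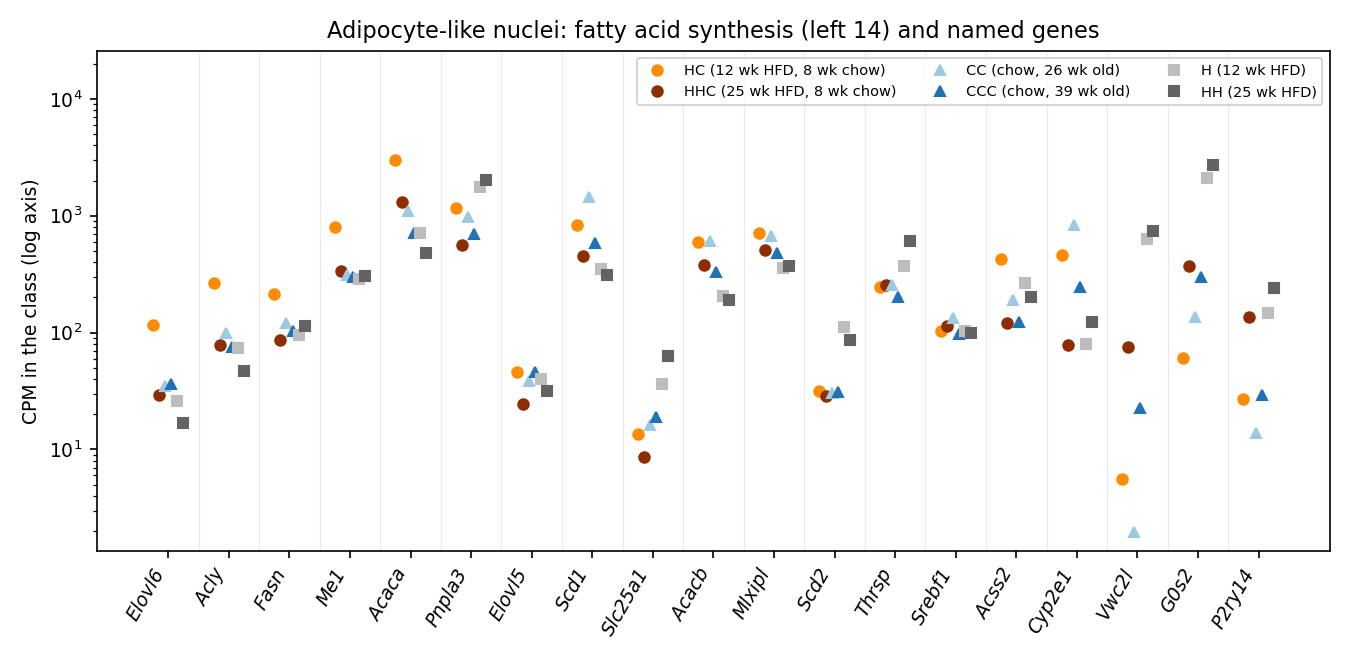
Level in adipocyte-like nuclei (CPM, log axis) of the 14 fatty acid synthesis genes and of 5 further genes in HC, HHC, CC, CCC, H and HH, each point being 1 library. Acly is at 267 CPM in HC and 77.6 in HHC, and Vwc2l at 5.62 and 74.7, with 631 and 742 in H and HH.

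In each class, genes with a level no lower than in the other nuclei of the library were ranked by the bound of the interval nearest to no difference, and those of the highest rank are described as having the largest ratios. Among these genes in adipocytes, several of those higher in HHC were also higher in the obese libraries. Vwc2l, a secreted protein with a von Willebrand factor C domain (chr1:70725715-70885397, plus strand, GRCm38), was at 5.62 CPM in HC (19 UMIs) and 74.7 in HHC (104 UMIs), a log2 ratio of 3.73 (3.02 to 4.52), and at 1.96 in CC, 22.5 in CCC, 631 in H and 742 in HH. G0s2, an inhibitor of the lipase ATGL (chr1:193272161-193273217, minus strand), had 60.4 CPM in HC and 374 in HHC (2.63, 2.39 to 2.87), with 135 in CC, 302 in CCC, 2099 in H and 2731 in HH. In both genes CCC also exceeded CC, by 3.52 and 1.16 on the log2 scale, so the older chow library differed from the younger in the same direction. P2ry14, a receptor for UDP sugars, had 27.2 and 136 CPM (2.32), and 147 in H and 242 in HH.

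Cebpb, an early transcription factor of adipogenesis, had 5.62 CPM in HC and 69.7 in HHC (3.63), but 39.0 in CC and 44.5 in CCC, so HC was the low library. Cebpb, Btg2, an antiproliferative gene (4.44 and 47.4 CPM), and Sfrp5, a secreted Wnt antagonist (3.55 and 27.3 CPM), were past 2-fold higher in all 5 classes, with 46.0, 28.2 and 17.9 CPM outside the adipocytes in HHC. Scn8a, a sodium channel subunit, had 8.59 and 58.2 CPM, and Anks1b, 3.85 and 32.3 CPM. The 8 genes named on this side were above HC also relative to genes of their span, by 1.97 to 3.84.

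On the lower side, Cyp2e1, a cytochrome P450 (chr7:140763739-140774987, plus strand), had 459 CPM in HC and 77.6 in HHC (-2.57, -2.86 to -2.28), against 839 in CC, 245 in CCC, 80.5 in H and 124 in HH. HHC was therefore near the obese libraries in this gene and HC between them and CC, while CCC was also below CC (-1.77). Outside the adipocytes Cyp2e1 had 65.9 CPM in HC and 16.9 in HHC, and it was past 2-fold lower in all 5 classes. Syt12, a synaptotagmin, had 76.1 and 16.5 CPM, Rnf144b, a ubiquitin ligase, 50.0 and 10.1 CPM, Erbb4, a neuregulin receptor, 42.6 and 9.34 CPM, Rhbdl3, a rhomboid-like protein, 112 and 32.3 CPM, Sorl1, a sorting receptor, 54.2 and 14.4 CPM, and Efcab8, 31.7 and 5.75 CPM. These 6 genes were at 19.6 to 134 CPM in CC, 26.4 to 70.6 in CCC, 6.50 to 40.3 in H and 8.96 to 31.4 in HH. In all 6 HHC was below HC and both chow libraries. Sorl1 had 19.6 CPM in CC, 26.4 in CCC, 20.8 in H and 21.8 in HH, so for this gene it was HC that stood apart, above the 5 others. In HHC 4 of them were at or below the level of the other nuclei, which had 50.9 CPM of Rnf144b, 16.3 of Erbb4, 33.1 of Rhbdl3 and 37.0 of Sorl1, and in HC the other nuclei had 45.4, 10.5, 37.3 and 47.8 CPM.

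Of 12 listed genes of lipolysis, 11 were tested and G0s2 alone was past 2-fold, with a median of -0.15 (-0.19 relative to span, where Adrb3 and Abhd5 were past 2-fold lower). Insulin signalling and glucose uptake genes (13 of 13 tested) had none past 2-fold and a median of -0.05 (-0.10 relative to span), and branched-chain amino acid genes (12 of 12) none and -0.21 (-0.27). Adipokines (7 of 10 tested) had none by CPM and a median of -0.07 (-0.14), but relative to span Retn, Cfd and Rbp4 were past 2-fold lower (-1.47, -1.09 and -1.04). Adipoq, which encodes adiponectin, was at 163 and 200 CPM. Lipid droplet protein genes (9 of 11 tested) had a median of 0.16 (-0.23 relative to span) and 1 past 2-fold lower, Plin5, with 18 UMIs in HC and 2 in HHC. Fatty acid oxidation genes (13) had Cpt1b past 2-fold higher (2.66 and 12.2 CPM) and Ppara, a receptor that drives this pathway, lower (176 and 78.3 CPM, -1.17), with a median of 0.15 (-0.07 relative to span). Of 12 adipogenic transcription factors, Cebpa had 18.4 and 74.0 CPM (2.01), Cebpd 3.85 and 7.90 CPM, Rxra 147 and 58.2 CPM (-1.34), and Pparg, the master regulator, 4110 and 3431 CPM, with a median of -0.14 (-0.13 relative to span). Fatty acid uptake and caveola genes (12) had 2 past 2-fold higher, Fabp5, which was past 2-fold higher in all 5 classes, and Lipa, and a median of 0.32 (-0.04 relative to span). Of all genes tested in adipocytes, 12.8% were past 2-fold higher and 4.24% lower, so the counts of these lists are small beside that background.

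For the 10 adipocyte genes that the study's text discusses, 6 were past 2-fold higher in HHC, 1 was lower, and the median was 1.23 (0.95 relative to span, with 5 higher and 1 lower). This list was chosen by the study on these samples and is not independent evidence of its direction. Runx2, a transcription factor, had 53.6 CPM in HC and 110 in HHC. Ctsd, a lysosomal protease, had 184 and 654 CPM in adipocytes, but 1485 CPM outside them in HHC, and with Lyz2 and Tyrobp, which are known as macrophage genes, was past 2-fold higher in all 5 classes.

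The kinds of macrophage differed in share by a few points. LAM-like nuclei were 28.6% of macrophages in HC (309 nuclei) and 29.8% in HHC (715 nuclei), a difference of 1.15 points (-2.15 to 4.37). They were 0.231% in CC (1 of 433 nuclei), 2.25% in CCC (8 of 355), 34.4% in H and 26.7% in HH, so both WL libraries stood near the obese libraries and far above chow. Non-perivascular macrophages (NPVMs) were 22.3% and 27.4% (5.04 points, 1.92 to 8.04), and perivascular macrophages (PVMs) 17.2% and 14.2% (-3.07 points, -5.79 to -0.49), against 37.9% in CC and 40.3% in CCC. Proliferating macrophages were 1.02% and 0.667%, and 30.8% and 28.0% stayed unnamed. Some of the genes that define these kinds had different levels in HC and HHC, as given next, so differences of a few points between these shares are not read further. With the 4 libraries of set S019 clustered alone, the differences were -4.93 points for LAMs and -0.17 for NPVMs, and without correction between libraries that for PVMs was -15.9. The proliferating macrophages above leave out an unnamed cluster led by cell cycle genes such as Top2a and Bub1. It held 47 nuclei of HC and 85 of HHC, 0.952% and 1.26% of nuclei in clusters. A first-pass cluster led by such genes had the macrophage markers Adgre1 and Dock2. Which class these nuclei belong to is not settled.

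Within macrophages, LAM genes were higher in HHC. Of 15 genes listed and tested, 7 were past 2-fold higher and none lower, 14 had intervals above 0, and the median was 0.80 against 0.19 for all genes (0.52 relative to span). The median was 0.83 in the chow pair, where few LAM nuclei were found, and -0.17 in the obese pair. Spp1, which encodes osteopontin, had 4.96 CPM in HC and 54.6 in HHC (3.46). Trem2, the lipid receptor that defines the kind, had 105 and 239 CPM (1.18), Apoe 190 and 1036 CPM (2.45), and Ctsl, a lysosomal protease, 138 and 760 CPM (2.46). Gpnmb, the most abundant, had 2512 and 3778 CPM (0.59), Mmp12, a macrophage elastase, 1624 and 2788 CPM (0.78), and Lgals3, which encodes galectin 3, 1348 and 1362 CPM. In the other nuclei of HHC, Spp1 had 90.5 CPM, Trem2 220 CPM, Ctsl 1152, Apoe 1219 and Gpnmb 2321. Spp1, Ctsl and Apoe were thus no higher in macrophage-like nuclei than in these other nuclei. The latter include unnamed nuclei and 1538 set apart in a cluster with macrophage as its best class of markers. They are therefore not free of macrophages. The 7 genes past 2-fold were past 2-fold higher in all 5 classes, and for Trem2 the log2 ratio was 1.18 in macrophages and 2.54 to 2.79 in the other 4.

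Within each kind the pattern differed in size. In LAM-like nuclei the same list had 6 past 2-fold higher and a median of 0.63 (0.36 relative to span), and in NPVM-like nuclei 11 past 2-fold higher and a median of 1.46 (1.40). In NPVMs, Mmp12 had 361 CPM in HC and 1307 in HHC, Gpnmb 802 and 2087, and Itgax, which encodes CD11c, 24.9 and 128. The other nuclei of HHC had 2374 CPM of Mmp12, 2894 of Gpnmb and 209 of Itgax, all above the NPVM value. These other nuclei include the 715 LAM-like nuclei of HHC, and Mmp12, Gpnmb and Itgax are among the markers that named LAMs. They are therefore not a background free of LAMs, and the comparison cannot show how much of the NPVM level came from other nuclei. The summed level of 8 LAM markers was also higher in HHC in classes other than macrophages, 1498 CPM in HC and 4004 in HHC in progenitors, 1398 and 3951 in mesothelial nuclei and 3229 and 5467 in B cells, and its part in the NPVM values was not tested. Whether the difference between the kinds exceeds what separate pools would show was not tested.

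Genes of antigen presentation by MHC class II were higher in HHC macrophages, and in the older library of the other pairs too. Of 10 listed, 9 were tested, 5 were past 2-fold higher and all 9 had intervals above 0, with a median of 1.38 (0.60 relative to span, where 3 were past 2-fold higher). The median was 1.14 in the chow pair and 1.04 in the obese pair, and 8 of the 9 genes had intervals above 0 in all 3 pairs. Cd74, the invariant chain, had 84.0 CPM in HC and 269 in HHC, 137 in CC and 301 in CCC, and 255 in H and 661 in HH. H2-Ab1 had 30.9 and 126 CPM, H2-Aa 62.4 and 163 CPM, and H2-Eb1 44.6 and 178 CPM, all subunits of the class II molecule. These genes and Ifi30, the 5 past 2-fold, were past 2-fold higher in all 5 classes, H2-Eb1 by more in progenitors (3.32) than in macrophages, and in HHC the other nuclei had 277 CPM of Cd74 and 158 CPM of H2-Eb1. Ciita, the master activator of these genes, had 145 and 177 CPM. In each pair the older library was the higher, at ages of 26 and 39 weeks in HC and HHC and in CC and CCC, and of 18 and 31 weeks in H and HH.

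**Figure D4:**
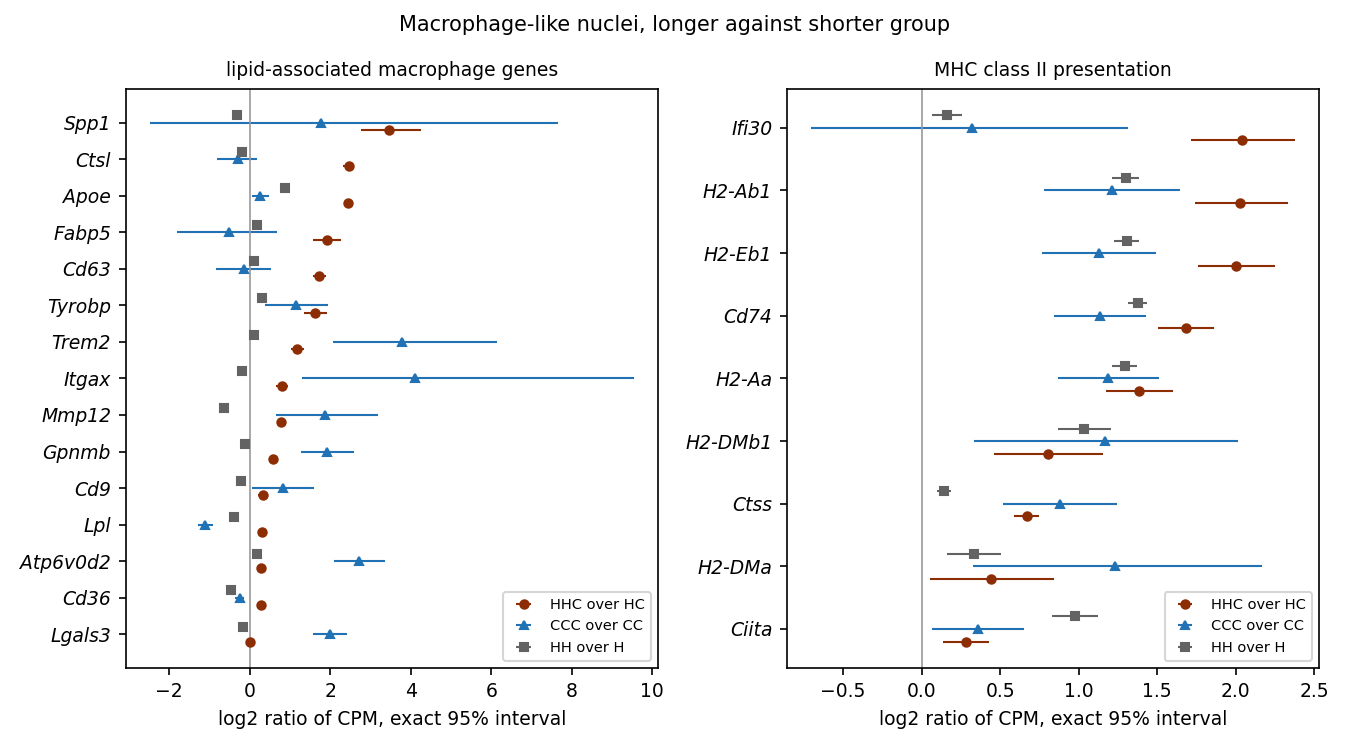
Log2 ratio of CPM in macrophage-like nuclei, with exact 95% intervals of counting error, of LAM genes and MHC class II genes for HHC to HC, CCC to CC and HH to H (ratios with an unbounded interval are not drawn). Trem2 lies at 1.18 for HHC to HC, and 8 of 9 MHC class II genes lie above 0 with their intervals in all 3 pairs.

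Chemokines and their receptors were also higher in HHC macrophages, at low levels. Of 15 genes, all tested, 10 were past 2-fold higher and none lower, with a median of 1.22 (0.81 relative to span, where 5 were past 2-fold), and 12 of the 15 span under 10 kb. Ccl8 (chr11:82115185-82116799, plus strand), a monocyte chemokine, had 1 UMI in HC and 192 in HHC, that is 0.292 and 21.5 CPM (log2 ratio 6.21, 3.71 to 11.5), against 9.33 CPM in CC, 12.0 in CCC, 47.2 in H and 45.0 in HH. The other nuclei of HHC had 15.3 CPM. Ccl2, which draws monocytes through Ccr2, had 3 UMIs in HC and 74 in HHC (0.87 and 8.30 CPM), and Ccr2 itself 7.29 and 16.9 CPM. Ccl4 had 2.62 and 11.7 CPM and Cxcr4, a receptor of bone marrow homing, 2.33 and 10.5 CPM. For Ccl8 it was HC that stood apart, below both chow libraries.

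Complement and lysosomal genes were higher on balance. Of 10 complement genes 4 were past 2-fold higher, against 15.3% of all genes and 38.4% of those under 10 kb, to which 5 of the 10 belong. The median was 0.80 (0.49 relative to span, where C3 alone was past 2-fold), with C1qa at 46.9 and 125 CPM, C1qc at 56.6 and 142 CPM and C3 at 47.5 and 132 CPM. Of 20 lysosomal genes 6 were past 2-fold higher, 19 had intervals above 0, and the median was 0.67 (0.44 relative to span, with 4 past 2-fold), with Psap at 1402 and 2818 CPM and Ctsk, a protease of LAMs and osteoclasts, at 152 and 371 CPM. C1qa, C1qc, Psap and Ctsk were past 2-fold higher in all 5 classes, Ctsk by 1.29 in macrophages and 2.32 to 2.56 in the other 4. Cholesterol handling genes (15) had 3 past 2-fold higher and a median of 0.54 (0.19 relative to span, where Apoe alone was past 2-fold). The PVM receptor genes (13) had none higher and 1 lower, Cd209b, a C-type lectin of perivascular macrophages (26.5 and 10.3 CPM, against 136 in CC and 176 in CCC), with a median of 0.22 (-0.28 relative to span). Inflammatory cytokines (10 of 13 tested) had 2 higher and 1 lower, the last being Ptgs2, which differed in all classes, and 1 in each direction relative to span. Tnf was at 16.6 and 20.3 CPM. Transcription factors (14) had none past 2-fold on either scale.

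Among the other macrophage genes with the largest ratios, Zfp36, which promotes decay of cytokine mRNA, had 6.12 CPM in HC and 33.7 in HHC, and 128 in H. Cd14, a co-receptor for lipopolysaccharide, had 1.17 and 9.99 CPM, Mycbp 13.99 and 67.3 CPM, Oprm1, the mu opioid receptor, 8.75 and 41.3 CPM, Chmp4c 6.41 and 35.1 CPM, Pkd1l3 1.17 and 11.7 CPM, and Olfr113, an olfactory receptor, 1 UMI and 74 UMIs, with the ratio of Olfr113 reversed without the correction between libraries (-1.18). Tent5d (4.96 and 29.7 CPM) was past 2-fold higher in all 5 classes, with 27.2 CPM in the other nuclei of HHC. Lower in HHC, Tmem267 (chr13:119488039-119611059, plus strand) had 714 CPM in HC and 68.0 in HHC, but 8.55 in CC and 56.9 in H, so HC was the library set apart, its ratio changed sign without the correction between libraries, and it was past 2-fold lower in all 5 classes. Slc15a2, a peptide transporter, had 34.7 and 3.70 CPM (-3.23), Olfr323 25.7 and 6.40 CPM, Dusp5, a phosphatase of ERK, 14.9 and 4.38 CPM, Hspa1b, a heat shock protein, 12.0 and 3.37 CPM, and Ifitm10 18.7 and 6.84 CPM. Gfra2, a co-receptor known in resident macrophages, had 45.2 and 19.4 CPM, far below the 340 CPM of CC. Kcnq1 (114 and 57.2 CPM) and Camk1d (3168 and 1726 CPM) were short of 2-fold.

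APCs of HHC had higher levels of chemokine and immune signal genes. Of 14 listed, 13 were tested, 8 were past 2-fold higher and none lower, and the median was 1.53 against 0.21 for all genes (0.74 relative to span, with 5 past 2-fold). The chow pair had a median of 0.81 and the obese pair 0.30. Ccl2 had 2.84 CPM in HC and 20.7 in HHC (2.87), against 3.51 in CC, 8.17 in CCC, 80.0 in H and 66.0 in HH. Ccl7 had 1.55 and 8.18 CPM, Ccl11, which draws eosinophils, 14.7 and 40.5 CPM, Cxcl13, which draws B cells, 1.29 and 12.0 CPM, and Saa3, an acute phase protein, 1.03 and 6.77 CPM. Lcn2, an iron-binding acute phase protein, had 0 UMIs in HC and 32 in HHC, so at 3 UMIs taken as the floor in HC its log2 ratio was at least 2.54. Csf1, the macrophage growth factor, had 124 and 161 CPM, and Il33 32.2 and 44.4 CPM, so not all signals to immune cells differed by 2-fold.

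Complement genes in APCs (9 of 10 tested) all had intervals above 0, with a median of 0.90 (0.60 relative to span, where none was past 2-fold, and 0.16 in the chow pair). Cfb, the factor B of the alternative pathway, had 13.7 and 37.8 CPM (1.47), C1ra 36.9 and 75.1 CPM, and C3 251 and 478 CPM (0.93). C4b had 88.0 and 164 CPM and C1s1 133 and 259 CPM. These genes are known to be made by stromal cells, and Cfb and C1ra were past 2-fold higher in all 5 classes.

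Matrix genes of APCs differed less. Of 18 matrix glycoprotein and crosslinking genes 4 were past 2-fold higher, against 15.5% of all genes and 38.0% of those under 10 kb. The median was 0.47 (0.43 relative to span, with 2 past 2-fold, 0.54 in the chow pair and -0.36 in the obese pair). Lum, which encodes lumican, had 19.9 and 52.9 CPM, Dcn, which encodes decorin, 1215 and 1688 CPM, Fn1, which encodes fibronectin, 292 and 403 CPM, and Postn, which encodes periostin, 59.6 and 105 CPM against 768 in H. Of 15 collagen genes, Col1a1 was past 2-fold higher (33.8 and 68.4 CPM), and the median was 0.25, near that of all genes (0.27 relative to span, where none was past 2-fold). Col3a1 had 524 and 724 CPM, against 3281 in H, and Col5a1 had 325 and 238 CPM. The TGF-beta, BMP and activin genes (15 of 16 tested) had none past 2-fold and a median of 0.045 (-0.11 relative to span). The Wnt pathway (15 of 17 tested) had 1 in each direction and a median of 0.08 (-0.28).

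By markers, fibro-inflammatory progenitors (FIPs) were 14.4% of progenitors in HC (189 nuclei) and 17.2% in HHC (361 nuclei), a difference of 2.76 points (0.22 to 5.21) whose direction changed without correction between libraries (-0.75 points). FIP genes (11) had 1 past 2-fold higher and a median of 0.58 (0.36 relative to span, with none past 2-fold). The committed progenitor genes (11) had the same median (0.19 relative to span), with 1 past 2-fold higher, Bst1 (3 UMIs in HC and 24 in HHC), and 1 lower, Pparg (538 and 246 CPM, -1.13). In the chow pair the FIP median was 0.32, but that of the committed progenitor genes went the other way, at -0.88. The committed progenitor genes summed to 7983 CPM in HC and 7584 in HHC, against 10851 in CC and 5913 in CCC. The other nuclei had 1637 CPM of Pparg in HC and 713 in HHC. The 14 adipocyte markers summed to 3313 CPM in progenitors of HC and 2287 in those of HHC, and the part of such RNA in the Pparg value was not tested. A cluster of progenitors led by interferon-induced genes was 1.45% of progenitors in HC (19 nuclei) and 3.14% in HHC (66 nuclei), and 0.824% in CC, 1.09% in CCC, 1.64% in H and 1.50% in HH.

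Among the APC genes with the largest ratios, Mgp, an inhibitor of calcification (chr6:136872435-136875823, minus strand), had 21.9 CPM in HC and 105 in HHC (2.26), against 54.2 in CC, 49.0 in CCC, 449 in H and 730 in HH. It was past 2-fold higher in all 5 classes, with 74.3 CPM outside APCs in HHC. Tmprss11a and Tmprss11d, membrane serine proteases, had 11.9 and 63.9 CPM and 3.35 and 25.8 CPM, and were at or below 1.72 CPM outside APCs in HHC. In H and HH, Tmprss11a had 49.2 and 85.0 CPM and Tmprss11d 34.3 and 70.6 CPM, so HHC lay between H and HH for Tmprss11a and below both for Tmprss11d, and in the chow pair both were higher in CCC (2.13 and 2.01). Ccn1, a matricellular protein, had 1.55 and 12.3 CPM, Hs3st5, a heparan sulfate sulfotransferase, 2.58 and 18.6 CPM, Cckbr, a receptor for cholecystokinin and gastrin, 1.29 and 10.9 CPM, Snrpf, a spliceosome protein, 5.16 and 28.8 CPM (past 2-fold higher in all 5 classes, with 21.5 CPM outside APCs in HHC), Spats1 1.03 and 12.5 CPM, and Ldlrad2 0.516 and 7.47 CPM.

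Lower in HHC were Dkk2, a secreted Wnt regulator (25.0 and 5.36 CPM, -2.22), Myrip (64.5 and 26.2 CPM), Lrrtm3 (127 and 59.9 CPM), Rorb, an orphan nuclear receptor (34.6 and 11.7 CPM), Grm7, a glutamate receptor (23.7 and 8.04 CPM), Cacng4 (37.9 and 12.0 CPM), Zfp804b (28.4 and 11.7 CPM) and Vstm5 (9.03 and 2.54 CPM). Galntl6 had 21.7 and 1.13 CPM and was the leading gene of a cluster of progenitors with 9 nuclei of HC and none of HHC, CC, CCC, H or HH. Cdk8 had 1984 and 848 CPM and was lower in all 5 classes and in CCC too (2299 CPM in CC and 864 in CCC). In the chow pair Dkk2, Lrrtm3, Rorb, Cacng4, Zfp804b and Vstm5 had values on the other side, higher in CCC than in CC.

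In endothelial nuclei, activation genes were higher in HHC. Of 11 listed, 9 were tested, 5 were past 2-fold higher and none lower, and the median was 1.01 against 0.17 for all genes (1.12 relative to span, 1.53 in the chow pair, 0.35 in the obese pair). Vwf, which encodes von Willebrand factor, had 266 and 536 CPM (1.01), Selp, the P-selectin of platelets and endothelium, 26.5 and 65.7 CPM, and Icam2 11.5 and 42.9 CPM. The others of the 5 were the class II genes Cd74 and H2-Ab1, which were past 2-fold higher in all 5 classes and in HHC were no higher in endothelial nuclei (247 and 133 CPM) than outside them (275 and 135 CPM). The class was made up differently in the 2 libraries: the cluster led by Car4 and Btnl9 held 230 of 363 endothelial nuclei in HC and 114 of 260 in HHC, and the cluster with Vwf and Selp among its leading genes held 87 and 93. In CC and CCC these clusters held 129 and 62 and 39 and 44 nuclei, and the part of this make-up in the class values was not tested. In the first pass of clustering, the cluster with Car4 and Btnl9 among its leading genes held 125 nuclei of HC and 100 of HHC. The size of this difference in make-up therefore depends on the clustering. Vcam1 and Icam1, which bind leukocytes, had 46.8 and 89.8 CPM and 41.5 and 73.7 CPM. Genes of fatty acid handling (10 of 11 tested) had 3 past 2-fold higher (1 relative to span), among them Fabp4, the fatty acid binding protein (3809 and 8873 CPM, 1.22), and Gpihbp1, which carries lipoprotein lipase to the lumen, at 130 and 261 CPM. The VEGF, angiopoietin and Notch genes (12 of 15 tested) had none past 2-fold. By the largest ratios, Ccn2 had 16.8 and 141 CPM and Wdr17 107 and 605 CPM on the higher side, and Stac 137 and 18.8 CPM, Lin7a 80.3 and 12.1 CPM and Hba-a2, a globin of red blood cells, 513 and 147 CPM on the lower side. The ratio of Lin7a reversed without correction between libraries (1.07) and with the libraries of S019 alone (1.81), and that of Hba-a2 with no upper limit on genes (0.33). Stac and Lin7a were leading genes of a first-pass pericyte cluster with 139 of 206 nuclei from HC, and 11 smooth muscle and pericyte markers summed to 1421 CPM in endothelial nuclei of HC and 942 in those of HHC.

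In mesothelial nuclei, Slpi, a secreted protease inhibitor (chr2:164354070-164389095, minus strand), had 22.2 CPM in HC and 227 in HHC (3.35, 2.63 to 4.18), with 81.0 in CC, 125 in CCC and 1120 in H. It was past 2-fold higher in all 5 classes, with 3.26 CPM outside mesothelial nuclei in HC and 22.9 in HHC. Gsdme, a gasdermin, had 79.0 and 449 CPM, against 723 in H and 977 in HH, and Slc38a11 9.71 and 94.8 CPM. Cebpb had 4.16 and 59.6 CPM, with HC below every other library as in adipocytes. Kctd8 had 59 UMIs in HC and 1 in HHC, and Pdzrn4 had 266 and 93.0 CPM. Lars2, the mitochondrial leucyl-tRNA synthetase, was past 2-fold lower in all 5 classes, at 567 to 1542 CPM in HC and 241 to 548 CPM in HHC. It was at 470 to 1312 CPM in CC, 287 to 922 in CCC, 76.6 to 133 in H and 68.3 to 115 in HH. Gm42418 was likewise lowest in H and HH (1198 to 2141 and 1494 to 2286 CPM), and a link between the 2 genes was not tested.

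The 4 genes of MHC class I described here, which presents peptides to CD8 T cells, were past 2-fold higher in HHC in all 5 classes, as were the class II genes named above. H2-D1 was at 42.0 to 162 CPM over the 5 classes in HC and 271 to 788 CPM in HHC, with log2 ratios of 2.28 to 2.79. B2m, the light chain of class I, was at 73.8 to 211 and 230 to 564 CPM (1.23 to 2.23), H2-K1 at 79.9 to 281 and 274 to 594 CPM (1.08 to 1.98), and the non-classical H2-T23 at 4.14 to 17.6 and 38.1 to 115 CPM (2.71 to 3.32). For H2-D1, CC had 112 to 311 CPM, CCC 98.0 to 387 CPM and H 288 to 849 CPM, so HC was below CC in each of the 5 classes. For H2-K1, HC was below both chow libraries in each of them. H2-K1 and H2-D1 are close paralogs, and reads they share make the level of each uncertain. Lyz2, a macrophage lysozyme, was higher in the same 5 classes (55.4 to 179 and 269 to 620 CPM), as was Ighm, and the part of free RNA in the class I values was not tested.

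Relative to genes of the same span, H2-D1 was past 2-fold higher in all 5 classes (1.68 to 2.03), but H2-K1 in adipocytes and mesothelial nuclei alone (0.47 to 1.28 over the 5 classes) and B2m in progenitors and mesothelial nuclei alone (0.44 to 1.53). The promoters of these 3 class I genes, all past 2-fold higher by CPM in all 5 classes, are shown as examples. H2-T23, H2-Q4, H2-Q7 and H2-T22 were past 2-fold higher in all 5 classes too. Their promoters are not shown. The 250 bases before the start of transcription were taken from RefSeq (GRCm38.p6), at chr17:34000334-34000583 (minus strand) for H2-K1, chr17:35262844-35263093 (plus strand) for H2-D1 and chr2:122147437-122147686 (plus strand) for B2m. Capitals mark a match, searched on both strands, to the palindromic kappa B site, whose letters are the 11 capitals in H2-K1 and H2-D1, or to an interferon-type element (GAAA, any 2 bases, GAAA), the 10 capitals in B2m. Only these letters were searched. Other forms of either element are not marked, so a promoter without such capitals is not shown to lack it.
H2-K1: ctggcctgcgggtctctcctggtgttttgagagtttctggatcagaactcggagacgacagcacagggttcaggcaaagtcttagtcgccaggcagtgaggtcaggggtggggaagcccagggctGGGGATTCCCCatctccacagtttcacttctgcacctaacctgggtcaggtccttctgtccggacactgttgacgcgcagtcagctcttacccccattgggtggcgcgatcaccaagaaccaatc
H2-D1: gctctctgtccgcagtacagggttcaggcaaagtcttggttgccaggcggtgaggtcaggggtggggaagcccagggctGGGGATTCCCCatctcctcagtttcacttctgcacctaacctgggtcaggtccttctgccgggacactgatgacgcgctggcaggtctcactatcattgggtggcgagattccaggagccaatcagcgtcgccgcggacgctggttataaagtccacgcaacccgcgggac
B2m: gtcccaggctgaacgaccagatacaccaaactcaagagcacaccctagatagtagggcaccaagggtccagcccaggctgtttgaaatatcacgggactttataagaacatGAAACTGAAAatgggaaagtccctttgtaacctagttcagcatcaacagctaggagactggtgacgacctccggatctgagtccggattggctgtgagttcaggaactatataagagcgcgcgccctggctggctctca
The kappa B letters begin 125 bases before the start in H2-K1 and 171 bases before it in H2-D1, and occur in 10 of 32851 promoter windows of 27025 genes (0.0304%). The 2 windows of H2-K1 and the 1 of H2-D1 are among these 10, so the share is not a background apart from these genes. The interferon-type letters occur in 978 windows (2.98%), that of B2m among them. A match of letters is a description and not evidence that a factor bound there.

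Interferon response genes (16 listed, 10 to 14 tested in each of the 5 classes) had 6 to 9 past 2-fold higher and none lower, with medians of 1.02 to 1.34 (0.30 to 0.64 relative to span). Relative to span fewer were past 2-fold higher, 3 in adipocytes, 1 in macrophages, where 1 was lower, 2 in progenitors, 2 in endothelial and 4 in mesothelial nuclei. The same medians were -0.31 to 0.24 in the chow pair and 0.04 to 0.26 in the obese pair. This list holds the class I genes. In macrophages, a separate list of interferon-stimulated genes without them (13 of 15 tested) had 2 higher, 1 lower and a median of 0.07 (-0.20 relative to span, with none higher and 2 lower).

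**Figure D5:**
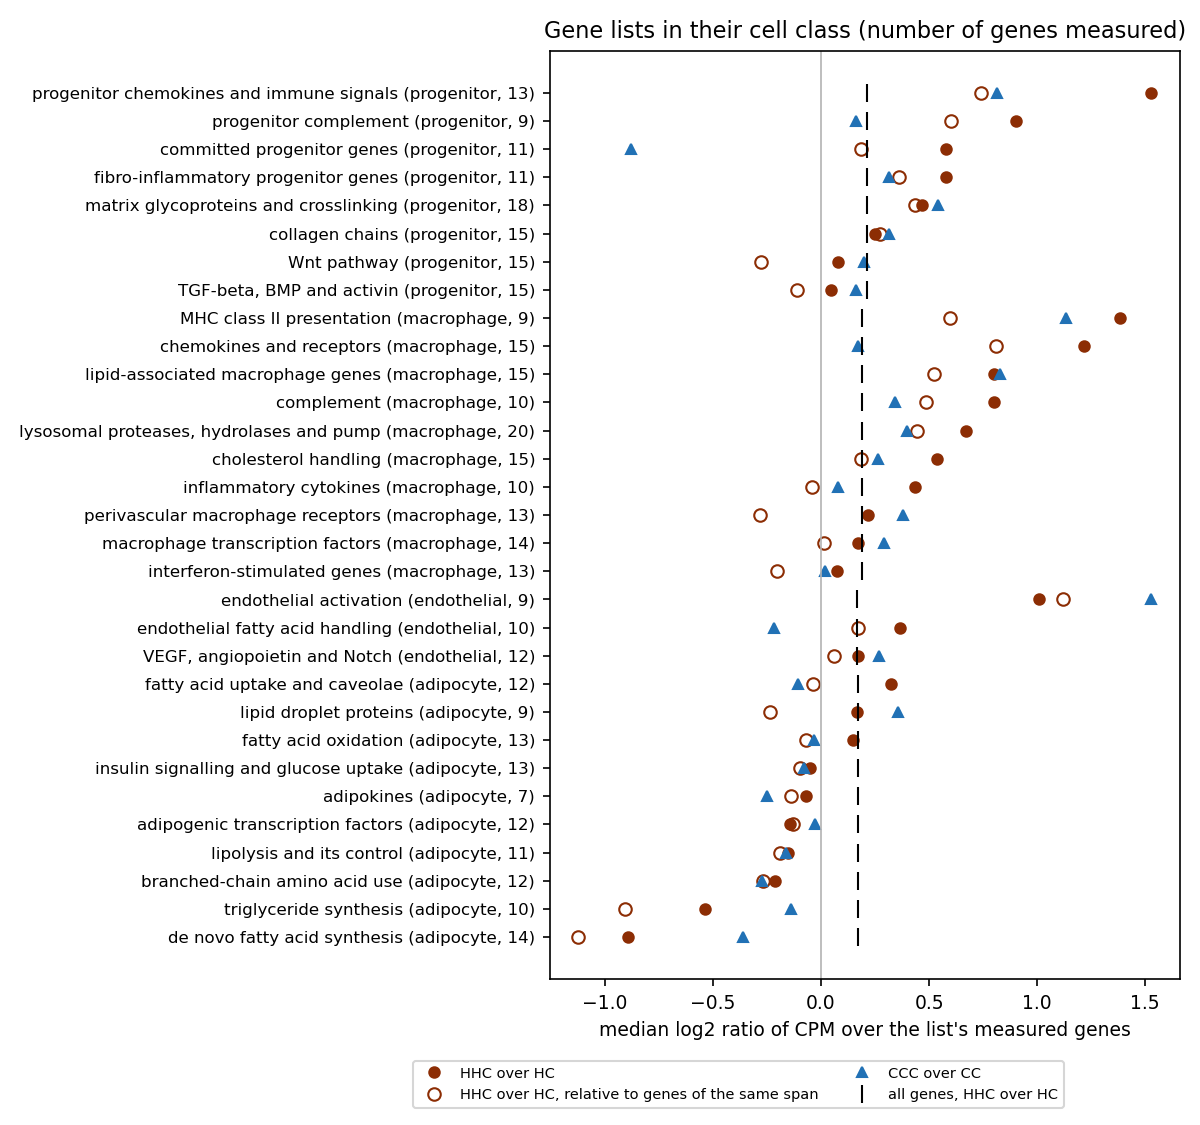
Median log2 ratio of HHC to HC of each gene list in its class, as measured and relative to genes of the same span, beside the chow pair (CCC to CC) and a bar for the median of all genes tested. De novo fatty acid synthesis in adipocytes lies at -0.89, and MHC class II presentation in macrophages at 1.38, or 0.60 relative to span.

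The 6 lists of general cell state had lower medians relative to genes of the same span than as measured in each of the 5 classes. Immediate early genes had medians of 0.37 to 0.97 over the 5 classes but -0.25 to 0.22 relative to genes of the same span, heat shock and unfolded protein response genes 0.58 to 0.90 but -0.05 to 0.38, nuclear-encoded respiratory chain genes 0.30 to 0.68 but -0.06 to 0.20, and senescence genes 0.01 to 0.50 but -0.30 to 0.03. In endothelial and mesothelial nuclei the heat shock list kept medians of 0.34 and 0.38 relative to span. Circadian clock genes had medians of -0.12 to -0.02 (-0.23 to -0.06 relative to span) and glucocorticoid response genes of -0.07 to 0.31 (-0.23 to 0.21).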

How the data were processed

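Nuclei were profiled by droplet single-nucleus RNA sequencing, with 1 library per diet group. The deposited matrices hold counts, that is raw UMI counts per gene and barcode, which the authors made with Cell Ranger 6.1.2 on GRCm38, and the submitters' processing notes also name Seurat 4.1.0. The limits on genes and UMIs of the nuclei were applied again here, since the matrices hold the barcodes before them. Of 32285 genes, 32235 matched the GENCODE vM21 annotation.

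Doublets were scored with Scrublet (scanpy 1.11.5, Python 3.11.15). Its automatic threshold marked under 0.5% of nuclei in all 4 libraries of set S019, so the highest scores were removed there at a rate of 0.8% per 1000 nuclei, 232 nuclei in HC and 663 in HHC. Nuclei were clustered (2000 variable genes, 30 principal components, Leiden, leidenalg 0.10.2) before and after a Harmony-type correction between libraries (theta 2), at resolution 1 and then 0.5. Clusters with few UMIs whose second class of markers reached 0.333 of the first were set apart. This limit was first 0.5, was changed after the clustering had been seen, and the earlier value is an alternative. Clusters were named from marker lists. Cluster sizes of 1 library can reflect that library: an adipocyte cluster of 294 nuclei came from CCC alone, and 940 of 1716 nuclei of an epithelial cluster.

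CPM is a gene's UMIs over all UMIs of the class, without mitochondrial genes and Malat1. Shares carry exact Clopper-Pearson intervals, differences of shares Newcombe intervals and ratios exact conditional intervals, all at 95%. Genes with at least 20 UMIs over both libraries were tested, a call was a ratio past 2-fold, and 3 UMIs stood for a count of 0. Genes were named where they had at least 50 UMIs and a level in the class no lower than in the other nuclei of that library, by the interval bound nearest to 1, 10 in each direction in adipocytes, macrophages and progenitors and 5 in the others, with unnamed gene models left out. Members of the fixed lists were named beside them, and 3 genes that the rule takes are not reported here. The members and lists were chosen with earlier results of these data known. Factors of edgeR 4.0.16 (TMM), R 4.3.3, gave other scalings. The code was checked on simulated data with known ratios. No sample of another series was in the files, and authors' cell labels were not used here.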

Additional observations from a re-analysis of the deposited data

Results flagged for a closer look

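The values here were picked out because HHC against HC and CCC against CC, the chow pair of the same ages, went opposite ways. For named genes both ratios had to be past 2-fold, with at least 20 UMIs over CC and CCC. Their intervals were not part of the rule. For shares both counting intervals had to be clear of 0. With 1 library per group the difference between the 2 pairs was not tested in any of them. In progenitors the log2 ratio of HHC to HC was -1.66 for Cacng4 (1.69 in the chow pair), -1.56 for Rorb (1.27), -1.83 for Vstm5 (1.01) and -1.28 for Zfp804b (1.03), and in mesothelial nuclei it was -1.52 for Pdzrn4 (1.28). Each of these genes spans at least 20.4 kb, and Vstm5 rests on 35 UMIs in HC and 18 in HHC. Among shares, macrophages differed by 13.7 points (-3.80 in the chow pair), progenitors by 4.61 (-8.74), smooth muscle or pericyte-like nuclei by -3.82 (1.96) and epithelial-like nuclei by -3.48 (15.8). The progenitor difference was -0.39, -0.93 or -0.42 points with 3 other treatments of the clusters, so its sign changed there and the contrast with the chow pair rests on the clustering. The 15.8 points came from 1 cluster with genes of cilia, such as Cfap61 and Ttc29, among its leading genes (18.8 points, 105 nuclei of CC and 940 of CCC), while the clusters that held most epithelial-like nuclei of HHC and of HC differed by -3.37 and 0.43 points in the chow pair and by 0.68 and -4.07 points between HHC and HC. The first pass of clustering was made over all nuclei that were kept, before clusters were set apart. In it 1472 nuclei of CCC lay in a cluster with leading genes of the same kind that was named from adipocyte markers. Which class such nuclei belong to is therefore not settled. Shares sum to a fixed total, so the epithelial-like nuclei gained between CC and CCC lower the other shares of CCC.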

How the results depend on the processing

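The precision of single genes is set by class depth, in HC and HHC at the least 1392481 UMIs (HHC adipocytes) among adipocytes, macrophages and progenitors, with 748391 in CCC macrophages and 769760 in H adipocytes, and covers counting only, since no group has a second library. No replicate could be left out, and no paired analysis was possible because each group has 1 library. The second-class limit of 0.333 behind the main results, and scalings relative to gene span, were chosen after seeing the data. The limit of 0.5 was the earlier value and is given as an alternative. The cause of the changes listed was not tested. For shares (HHC minus HC, points), adipocytes were -8.44 with no upper limit on genes, -10.5 with the low-count clusters kept and -10.7 at a second-class limit of 0.5. Macrophages were 7.84 with low-count clusters kept, 26.2 without correction and 16.3 with the libraries of S019 alone. Progenitors changed sign, to -0.39 with low-count clusters kept, -0.93 with S019 alone and -0.42 at 0.5. With S019 alone T and NK cells were 1.03, B cells 0.78, LAMs -4.93 and NPVMs -0.17 (reversed). B cells were 2.09 without doublet removal, and without correction PVMs were -15.9 and FIPs -0.75 (reversed). Counts past 2-fold higher and lower changed as follows. In adipocytes, 2340 were higher with no upper limit on genes, 2231 at 0.5, 640 with thinned nuclei, 844 relative to span, 5516 at a minimum of 1 UMI (genes at the floor included) and 376 at 100 UMIs. Lower were 319 with low-count clusters kept, 312 at 0.5, 762 with TMM, 787 with median-of-ratios factors, 881 at 1 UMI and 160 at 100. In macrophages 997 were higher at 100 UMIs and 1081 relative to span, and 4230 lower at 1 UMI and 307 at 100. In progenitors 916 were higher at 100 UMIs and 1177 relative to span, and 3015 lower at 1 UMI, 162 at 100 and 702 relative to span. In endothelial nuclei, 641 were higher with S019 alone, 651 with TMM, 635 with median-of-ratios factors, 4038 at 1 UMI, 197 at 100, 530 thinned and 532 relative to span, and lower were 242 with low-count clusters kept, 243 at 0.5, 646 with TMM, 666 with median-of-ratios factors, 924 at 1 UMI and 135 at 100. In mesothelial nuclei 2280 were higher at 1 UMI, 197 at 100, 574 thinned and 626 relative to span, and 3045 lower at 1 UMI, 72 at 100 and 470 relative to span. Medians of lists reversed for immediate early genes in adipocytes when thinned (-0.069), and relative to span in macrophages (-0.011) and endothelial nuclei (-0.022), and for heat shock genes in macrophages relative to span (-0.049). Single genes reversed for Olfr113 (-1.18), Tmem267 (0.77) and Lin7a (1.07) without correction, Lin7a (1.81) with S019 alone, Hba-a2 (0.33) with no upper limit on genes and Icam1 in adipocytes when thinned (-0.040).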
